A study of Mus musculus with 9 samples.

Results

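The renin-angiotensin system was followed in mouse heart through 9 genes chosen by name out of the 55401 Ensembl genes of a count table. They are the receptor genes Agtr1a, Agtr1b, Agtr2, Mas1 and Atp6ap2, the precursor gene Agt and the enzyme genes Ren1, Ace and Cma1. All 9 identifiers were found in the table. Reads were counted for 7 of the genes, and 6 had enough of them in enough libraries to be tested.

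The study sequenced poly(A) RNA from heart in 9 libraries, 3 under each of 3 treatment labels. All mice were of strain C57BL/6. Libraries labelled "Kmo+Ang II" (called Kmo_AngII here) and those labelled "Ang II" (AngII) came from mice treated with Ang II, the peptide angiotensin II, while the Ctrl libraries came from mice treated with PBS, a salt buffer. The letters that open the sample titles give a second grouping that crosses the first. The 3 Kmo_AngII libraries are the 3 libraries titled KKA, while WA holds AngII replicate 3 with Ctrl replicates 2 and 3, and WC holds AngII replicates 1 and 2 with Ctrl replicate 1. Since WA thus holds mostly Ctrl libraries and WC mostly AngII libraries, and the labels explain neither set of letters, whether any treatment label was exchanged between libraries cannot be told from them. Every AngII minus Ctrl value and its sign hold for the libraries as labelled. What Kmo stands for, what the title letters mean, and the age, sex, dose and duration of the mice and their treatment are all left unstated in the labels. Separate animals are not named in the labels, so a p-value here measures only how far these samples differ, and that spread may be technical. The source of every sample is given as heart, although the protocol text mentions an adipose type. All 9 cardiomyocyte markers were counted in every library, with summed levels of 18786 to 46317 CPM in Kmo_AngII, 24508 to 38461 CPM in AngII and 31217 to 48699 CPM in Ctrl libraries.

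In this system the liver is known as the main source of angiotensinogen, the product of Agt, and the kidney as the main source of renin, which cuts it to the inactive peptide angiotensin I. ACE, a membrane peptidase of endothelium, turns angiotensin I into angiotensin II, and mast cell chymase can do the same. Angiotensin II acts mainly through the type 1 receptor, which raises blood pressure, aldosterone release and growth of the heart muscle. Mice have a pair of genes for that receptor, Agtr1a and Agtr1b.

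The table holds whole-number counts. Each library had between 56827533 and 73194268 of them, and mitochondrially encoded genes took 30.3% to 55.5%. Levels are given as CPM, the count of a gene scaled to the size of its library, with sizes corrected by the TMM method, which sets libraries to a common scale on the bulk of their genes. A count of 3 then corresponded to 0.0353 to 0.0716 CPM, depending on the library. A call is an adjusted p under 0.05 in edgeR's quasi-likelihood F test, with Benjamini-Hochberg adjustment over all 19091 genes tested. In a bulk tissue sample, fewer cells of a type and less RNA per cell cannot be told apart.

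Per kilobase of merged exon length, Ace was the most abundant of the genes, at 8.11 ± 4.04 CPM per kb over all libraries (SD, n = 9). Agtr1a followed at 5.47 ± 2.38 and Atp6ap2 at 3.61 ± 0.945 CPM per kb, and the SD intervals of these neighbours overlapped. Agt stood at 1.78 ± 0.726, Mas1 at 0.919 ± 0.449 and Cma1 at 0.367 ± 0.261 CPM per kb, again with SD intervals that overlapped between neighbours. Between Atp6ap2 and Agt they did not overlap, although their ranges over the libraries, 2.62 to 4.99 and 0.715 to 3.15 CPM per kb, overlapped. Ace ranked highest in 7 of the 9 libraries, and Agtr1a in AngII replicate 2 and Ctrl replicate 1. In AngII replicate 1, Agtr1a ranked 6 instead.

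None of the 6 tested genes was called between treatment labels. The background was the same, since 0.0% of the 19091 genes passed in AngII against Ctrl, 0.0% in Kmo_AngII against AngII and 0.0% in Kmo_AngII against Ctrl. By DESeq2's Wald test the counts over all genes were 2, 3 and 9 in those comparisons, with none of the 6 genes among them. At an unadjusted edgeR p under 0.05, 0 of the 6 genes passed in each of the 3 comparisons, beside 5.25%, 2.16% and 2.79% of all genes, in the same order. The median fitted log2 difference of the 6 genes was -0.10 in AngII minus Ctrl, 0.32 in Kmo_AngII minus AngII and 0.25 in Kmo_AngII minus Ctrl. The median of all tested genes was 0.022, 0.033 and 0.049 in these comparisons.

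**Figure D1:**
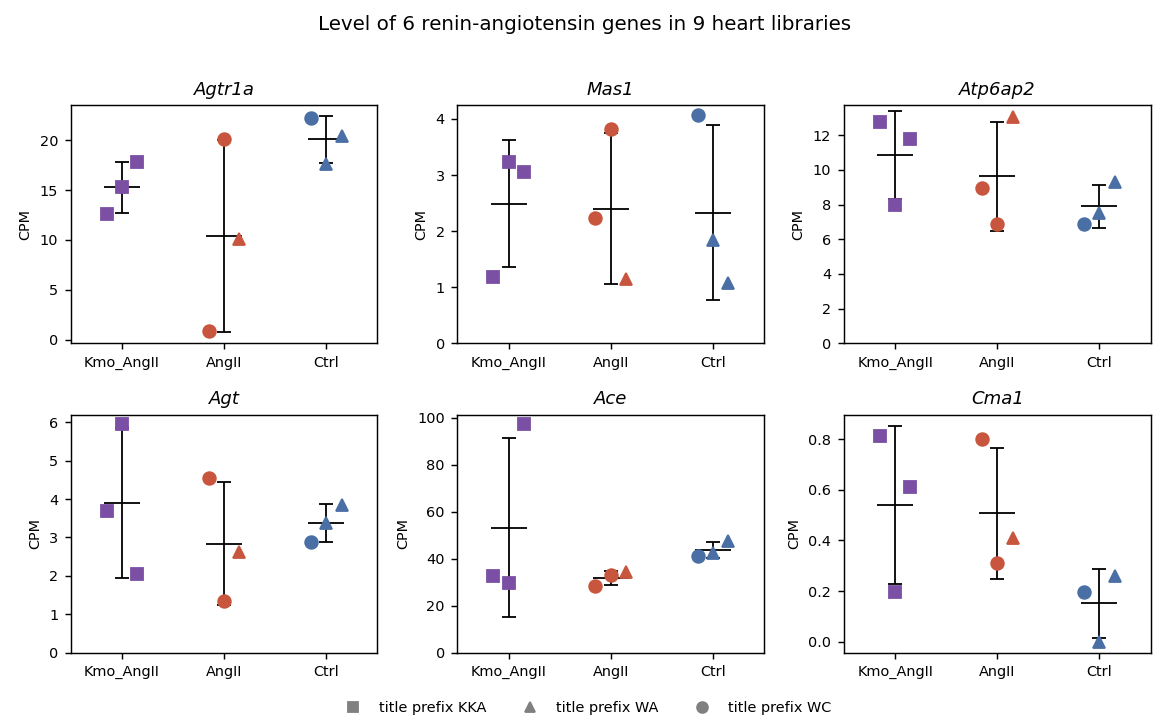
Level in CPM (vertical axis) of the 6 tested genes in each library, by treatment label, with the marker shape giving the title prefix and the bar the mean with its SD (n = 3). Agtr1a has 1 AngII library at 0.860 CPM, Ace has 1 Kmo_AngII library at 97.2 CPM, and only Ace and Cma1 have no overlap between AngII and Ctrl.

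Agtr1a (ENSMUSG00000049115, chromosome 13) encodes the main type 1 receptor of mouse tissues, a G protein-coupled receptor carried in heart mostly by stromal and mural cells. Its near-copy Agtr1b (ENSMUSG00000054988, chromosome 3) is known for its use in the adrenal and the pituitary. The coding sequences of both genes, 1080 bases each in the GENCODE M21 transcripts, were identical at 90.8% of their bases and differed at 99. They are shown because the reads of these genes can only be told apart where the bases differ. The stretch that differs most, coding positions 964 to 1023, has 13 mismatches in 60 bases, given in capitals on the coding strand:
Agtr1a: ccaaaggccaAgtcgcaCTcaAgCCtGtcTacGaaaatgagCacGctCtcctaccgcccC
Agtr1b: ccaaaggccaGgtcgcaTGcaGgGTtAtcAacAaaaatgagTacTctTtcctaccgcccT
Both genes share positions 76 to 135 in full:
Agtr1a and Agtr1b: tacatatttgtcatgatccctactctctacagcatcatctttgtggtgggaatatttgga
Of the 50-base stretches of the Agtr1a transcript used, 1.53% also occurred in Agtr1b, and 0% of the 100-base stretches did. Agtr1b had a count of 0 in each of the 9 libraries, so no count was assigned to it in this table.

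Agtr1a stood at 12.7, 15.3 and 17.8 CPM in Kmo_AngII libraries, at 0.860, 20.2 and 10.1 CPM in AngII libraries and at 22.2, 17.6 and 20.4 CPM in Ctrl libraries. The AngII group held the lowest of all 9 libraries and also 1 that lay among the Ctrl libraries. Kmo_AngII overlapped Ctrl by a narrow margin, with its highest library just above the lowest Ctrl library. AngII averaged 10.4 ± 9.65 CPM and Ctrl 20.1 ± 2.33 CPM (SD, n = 3 each), and the fitted log2 difference of -0.95 ± 0.74 (SE) was not called (edgeR adjusted p = 0.907). For Kmo_AngII, at 15.3 ± 2.58 CPM (SD, n = 3), the log2 difference was 0.56 ± 0.73 to AngII (edgeR adjusted p = 0.9998) and -0.40 ± 0.73 to Ctrl (edgeR adjusted p = 0.998).

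The size of the first difference depended on which AngII libraries were in the fit. AngII replicate 1 had 73 Agtr1a counts, and the lowest of the other 8 libraries had 738. On the CPM scale the other 8 libraries lay 11.7-fold to 25.8-fold above it, while they spanned 2.20-fold among themselves. Without AngII replicate 1 the log2 difference of AngII minus Ctrl was -0.41, and without AngII replicate 2 it was -1.87, neither of them called (edgeR adjusted p = 0.971 for the second). Against AngII, the Kmo_AngII difference was 0.012 without AngII replicate 1 and 1.48 without AngII replicate 2.

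Genes of the cells that carry the receptor did not share that drop. Summed over a list of 10 fibroblast markers, the Kmo_AngII libraries had 965.8 to 3392 CPM, AngII replicate 1 had 999.6 CPM, the other AngII libraries 1122 and 1236 CPM, and the Ctrl libraries 1322 to 1396 CPM. Agtr1a counts per 100 counts of Pdgfrb, a receptor kinase of pericytes and smooth muscle, were 22.3, 19.6 and 20.2 in Kmo_AngII, 1.10, 22.7 and 15.9 in AngII and 27.1, 30.7 and 29.5 in Ctrl. Set against Pdgfrb, the Ctrl libraries lay above all of the other 6, and AngII replicate 1 lay far under every library. Per 100 counts of Pdgfra, a fibroblast receptor kinase, the values were 45.6, 79.3 and 33.3 in Kmo_AngII, 3.65, 75.2 and 41.5 in AngII and 72.4, 72.9 and 90.5 in Ctrl. Here the groups overlapped, and AngII replicate 1 again stood alone. They also overlapped when Agtr1a was set against the whole list of 10 pericyte and smooth muscle genes, with 14.7, 18.7 and 24.2 Agtr1a counts per 1000 list counts in Kmo_AngII, 0.960, 23.2 and 9.96 in AngII and 22.3, 18.8 and 17.8 in Ctrl. The order seen with Pdgfrb was therefore not that of the list it belongs to.

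**Figure D2:**
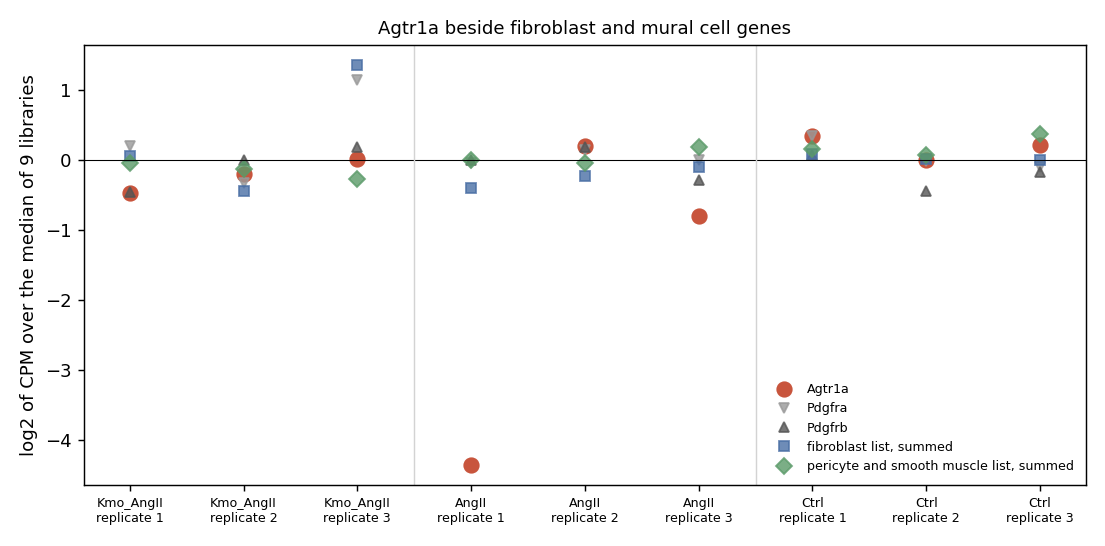
Level of Agtr1a and of fibroblast and mural cell genes in each library, as the log2 of the CPM over the median of the 9 libraries (vertical axis), with libraries along the horizontal axis. Agtr1a is low in AngII replicate 1, at 0.860 CPM, where Pdgfra, Pdgfrb and both summed lists lie at their median or slightly under it.

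The other angiotensin II receptor, AT2, is encoded by Agtr2 (ENSMUSG00000068122, chromosome X) and is known as a receptor of fetal and injured tissue that opposes the type 1 receptor. It had a count of 8 in AngII replicate 3, or 0.0990 CPM, and a count of 0 in the other 8 libraries. It did not pass the filter on low counts and has no test. A level far under 3 counts, a floor that was chosen and not measured, could also have given a count of 0.

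Mas1 (ENSMUSG00000068037, chromosome 17) encodes the receptor for angiotensin-(1-7), a shorter peptide cut from angiotensin I or II. Its level was 1.18, 3.23 and 3.06 CPM in Kmo_AngII libraries, 2.23, 3.82 and 1.15 CPM in AngII libraries and 4.07, 1.84 and 1.08 CPM in Ctrl libraries. The 3 treatment labels covered nearly the same range, with means of 2.49 ± 1.14, 2.40 ± 1.34 and 2.33 ± 1.56 CPM (SD, n = 3 each). The log2 difference was 0.040 ± 0.60 (SE) in AngII minus Ctrl (edgeR adjusted p = 0.994).

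The same libraries separated by title prefix. Mas1 had 1.15, 1.84 and 1.08 CPM in the WA libraries, against 2.23, 3.82 and 4.07 CPM in the WC libraries, and the KKA libraries lay across both ranges. The lowest WC library was above the highest WA library. WA averaged 1.35 ± 0.419 CPM and WC 3.37 ± 1.002 CPM (SD, n = 3 each). In the fit of all 9 libraries WA minus WC came to -1.32 ± 0.44 on the log2 scale (SE) and was not called (edgeR unadjusted p = 0.0114, adjusted p = 0.224). Fitting the 6 WA and WC libraries alone leaves out the spread of the KKA libraries, and Mas1 was then called as lower in WA, with a log2 difference of -1.31 ± 0.34 (SE), a ratio of 0.404 (edgeR adjusted p = 0.0285). It was lower in all 3 WA libraries than in any WC library.

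That call stands against a high background. Of 18111 genes in the fit of 6 libraries, 13.3% were called, 5.25% as lower and 8.06% as higher in WA, and at an unadjusted p under 0.05 the share was 29.7%. Among the renin-angiotensin genes it was 1 of 6. With all 9 libraries 0.0% of genes were called for WA minus WC, 18.0% passed an unadjusted p of 0.05, and DESeq2 called 505 genes without Mas1 among them. Leaving Kmo_AngII replicate 1 out of that fit gave 1576 called genes, Mas1 included (edgeR adjusted p = 0.0391). Groups that do not overlap were also common, at 33.6% of genes for WA and WC. The call was lost when Ctrl replicate 1 (edgeR adjusted p = 0.112), Ctrl replicate 3 (0.128), AngII replicate 2 (0.134) or AngII replicate 3 (0.0630) was left out, and when library size alone scaled the counts (0.0604).

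Several marker lists moved with the title prefix beside Mas1. Red blood cell genes summed to 116.3 to 489.7 CPM in WA and to 2944 to 7318 CPM in WC. Endothelial genes summed to 876.2 to 1085 CPM in WA and to 1181 to 1263 CPM in WC, with all 10 counted in every library. Atrial genes summed to 751.4 to 1226 CPM in WA and to 50.0 to 117.3 CPM in WC, of which Bmp10 was at 0 in all 3 WA libraries. Mast cell genes summed to 26.5 to 34.4 CPM in WA and to 38.6 to 40.3 CPM in WC. The mast cell protease genes Cpa3, Mcpt4 and Tpsb2 each had at most 1.001 CPM in these libraries, so that sum rests mostly on other genes. Cardiomyocyte genes, the bulk of the muscle, separated in the other direction, with sums of 38461 to 48699 CPM in WA and 24508 to 31217 CPM in WC. Epicardial and mesothelial genes summed to 8.58 to 11.9 CPM in WA and to 16.1 to 18.5 CPM in WC, and nerve and Schwann cell genes to 5.65 to 9.44 CPM in WA and to 11.4 to 12.7 CPM in WC. In the fit of 6 libraries, though, 5 of the 7 epicardial and mesothelial genes had a positive log2 difference. Their median was 0.895 and 1 was called lower in WA, so that sum does not stand for most of its list. The part of these 7 lists in the Mas1 difference was not tested. The atrial sum rests mostly on Nppa, at 603.5 to 1222 CPM in WA and 48.0 to 113.7 CPM in WC, a gene that also responds to load in the ventricle. Nppa gave 1222 of 1226 CPM in Ctrl replicate 3 and 807.8 of 810.6 CPM in AngII replicate 3. In WC it gave 113.7 of the 117.3 CPM of Ctrl replicate 1. The separation of the atrial list by prefix therefore rests on Nppa. Ctrl replicate 2 held more of the other atrial genes, with Nppa at 603.5 of 751.4 CPM.

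**Figure D3:**
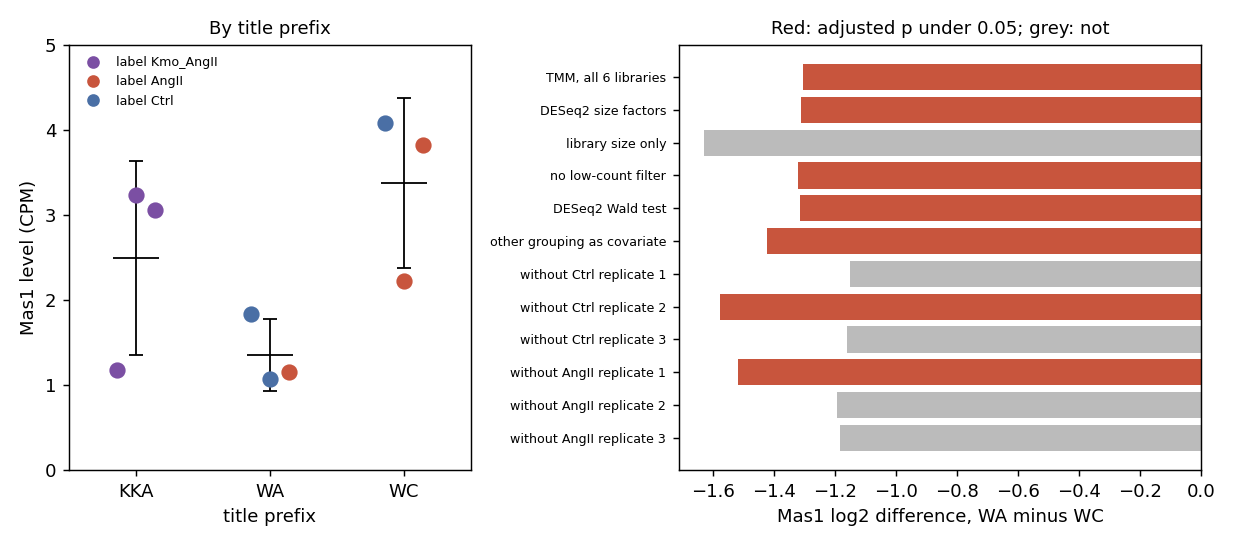
Left, Mas1 level in CPM of each library by title prefix, coloured by treatment label, with bars for the mean and its SD (n = 3) and with all 3 WA libraries under all 3 WC libraries. Right, the fitted log2 difference of WA minus WC in the fit of 6 libraries and under each alternative, on an axis with negative values meaning lower in WA, with red bars where the edgeR or DESeq2 adjusted p was under 0.05 and grey bars where it was not.

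KKA did not differ from either prefix by a call in Mas1. The log2 difference was 0.88 ± 0.43 (SE) in KKA minus WA (edgeR unadjusted p = 0.0666, adjusted p = 0.718) and -0.44 ± 0.43 in KKA minus WC (edgeR adjusted p = 0.995), the second with a range of -0.67 without AngII replicate 1 to -0.10 without Kmo_AngII replicate 1. Over all genes 0.0% were called in KKA against WA and 0.0% in KKA against WC, with 7.05% and 3.51% at an unadjusted p under 0.05. DESeq2 called 91 and 27 genes there, with none of the 6 genes among them.

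Atp6ap2 (ENSMUSG00000031007, chromosome X) encodes the (pro)renin receptor, which is also an accessory part of the V-ATPase, the proton pump of acid vesicles. It had 12.8, 7.99 and 11.8 CPM in Kmo_AngII libraries, 8.96, 6.87 and 13.1 CPM in AngII libraries and 6.89, 7.49 and 9.31 CPM in Ctrl libraries. The labels overlapped, although 2 of the 3 Kmo_AngII libraries lay above every Ctrl library. Kmo_AngII averaged 10.8 ± 2.52 CPM and Ctrl 7.90 ± 1.26 CPM (SD, n = 3 each), with a log2 difference of 0.46 ± 0.28 (SE) that was not called (edgeR unadjusted p = 0.137, adjusted p = 0.998). AngII minus Ctrl came to 0.29 ± 0.28 (edgeR adjusted p = 0.924), and to 0.0039 without AngII replicate 3 and 0.48 without AngII replicate 2. By prefix the gene stood at 10.8 ± 2.52 CPM in KKA, 9.95 ± 2.84 CPM in WA and 7.57 ± 1.20 CPM in WC (SD, n = 3 each), with KKA minus WC at 0.52 ± 0.26 on the log2 scale (edgeR unadjusted p = 0.0759, adjusted p = 0.995). Of the 50-base stretches of the Atp6ap2 transcript used, 2.86% also occurred in Gm36448, a gene model, so a small share of its reads may be split.

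Agt (ENSMUSG00000031980, chromosome 8) was counted in every library at a low level. It had 3.69, 5.96 and 2.05 CPM in Kmo_AngII libraries, 4.55, 1.35 and 2.61 CPM in AngII libraries and 2.89, 3.39 and 3.86 CPM in Ctrl libraries. The Ctrl libraries lay close together, and both groups given Ang II spread to either side of them. The means were 3.90 ± 1.96, 2.84 ± 1.61 and 3.38 ± 0.484 CPM (SD, n = 3 each). The log2 difference was -0.25 ± 0.48 (SE) in AngII minus Ctrl (edgeR adjusted p = 0.961) and 0.46 ± 0.48 in Kmo_AngII minus AngII (edgeR adjusted p = 0.9998). Leaving out Kmo_AngII replicate 2 moved this last value to 0.019, and leaving out AngII replicate 1 moved it to 0.97. Hepatocyte genes, the mark of the cells best known for Agt, summed to 44.4 to 59.5 CPM in Kmo_AngII, 13.9 to 55.6 CPM in AngII and 22.0 to 29.9 CPM in Ctrl libraries. AngII replicate 2 had the highest hepatocyte sum of its group and the lowest Agt level of all 9 libraries.

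Ren1 (ENSMUSG00000070645, chromosome 1), the gene of renin, had a count of 0 in all 9 libraries. A level far under the chosen floor of 3 counts, or 0.0353 to 0.0716 CPM, could have gone uncounted in the heart samples.

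Ace (ENSMUSG00000020681, chromosome 11) had 32.8, 29.5 and 97.2 CPM in Kmo_AngII libraries, 28.2, 33.0 and 34.1 CPM in AngII libraries and 41.0, 42.6 and 47.4 CPM in Ctrl libraries. All 3 AngII libraries lay under all 3 Ctrl libraries, while Kmo_AngII had 2 libraries at the AngII level and 1 far above every other. AngII averaged 31.8 ± 3.16 CPM and Ctrl 43.7 ± 3.33 CPM (SD, n = 3 each). The log2 difference of -0.46 ± 0.40 (SE) was not called (edgeR unadjusted p = 0.280, adjusted p = 0.915). Of the 6 genes, Ace and Cma1 had no overlap between AngII and Ctrl, beside 12.2% of all genes.

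The large spread in that test came from the Kmo_AngII libraries. Kmo_AngII replicate 3 was 2.05-fold above the next highest library, and the other 8 spanned 1.68-fold. Without it, AngII minus Ctrl was still -0.46 and the unadjusted p was 0.0325, but the gene was not called (edgeR adjusted p = 0.785). Fitted on the AngII and Ctrl libraries alone, the unadjusted p was 0.0410 and the adjusted p 0.704 (edgeR). When library size alone scaled the counts, the fitted difference was 0.19, because the median of all genes then moved to 0.67. Relative to that median Ace lay at -0.48.

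Kmo_AngII averaged 53.2 ± 38.2 CPM of Ace (SD, n = 3). The log2 difference was 0.74 ± 0.40 (SE) to AngII (edgeR unadjusted p = 0.0956, adjusted p = 0.9998) and 0.28 ± 0.40 to Ctrl (edgeR adjusted p = 0.998). Without Kmo_AngII replicate 3 these differences were -0.029 and -0.49. No renin-angiotensin gene separated Kmo_AngII from AngII or from Ctrl without overlap, while 6.17% and 6.77% of all genes did.

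Kmo_AngII replicate 3 stood apart in its cell markers as well. Its fibroblast genes summed to 3392 CPM, against 965.8 to 1396 CPM in the other 8 libraries. Epicardial and mesothelial genes summed to 91.3 CPM there and to 4.12 to 18.5 CPM elsewhere, and adipocyte genes to 30.3 CPM against at most 5.15 CPM. Atrial genes, at 2285 CPM against at most 1226 CPM, and nerve and Schwann cell genes, at 28.5 CPM against at most 12.7 CPM, were also highest there. Of these atrial sums, Nppa gave 1101 CPM in Kmo_AngII replicate 3 and 1222 CPM in Ctrl replicate 3, the library with 1226 CPM. The other atrial genes thus set Kmo_AngII replicate 3 much further apart than the sums do. The same library had the lowest cardiomyocyte sum, 18786 CPM against at least 24508 CPM, and the highest mitochondrial share, 55.5%. Macrophage genes summed to 391.1 CPM in Kmo_AngII replicate 3 and to 359.0 CPM in Kmo_AngII replicate 2, against at most 220.5 CPM elsewhere. Mast cell genes, at 49.3 CPM against at most 41.3 CPM, and hepatocyte genes, at 59.5 CPM against at most 55.6 CPM, were highest in replicate 3 too. Endothelial genes, at 1021 CPM in that library, lay within the range of the other libraries, which was 812.8 to 1263 CPM. Ace counts per 1000 counts of the endothelial list were 40.4, 27.0 and 95.2 in Kmo_AngII, 22.3, 28.0 and 31.5 in AngII and 34.0, 48.2 and 54.1 in Ctrl. The part of these markers and of the mitochondrial share in the Ace level of that library was not tested. Ace shares 295 bases of exon with Gm11651 on the opposite strand, and without a stated strand setting the reads of that stretch cannot be assigned to either.

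**Figure D4:**
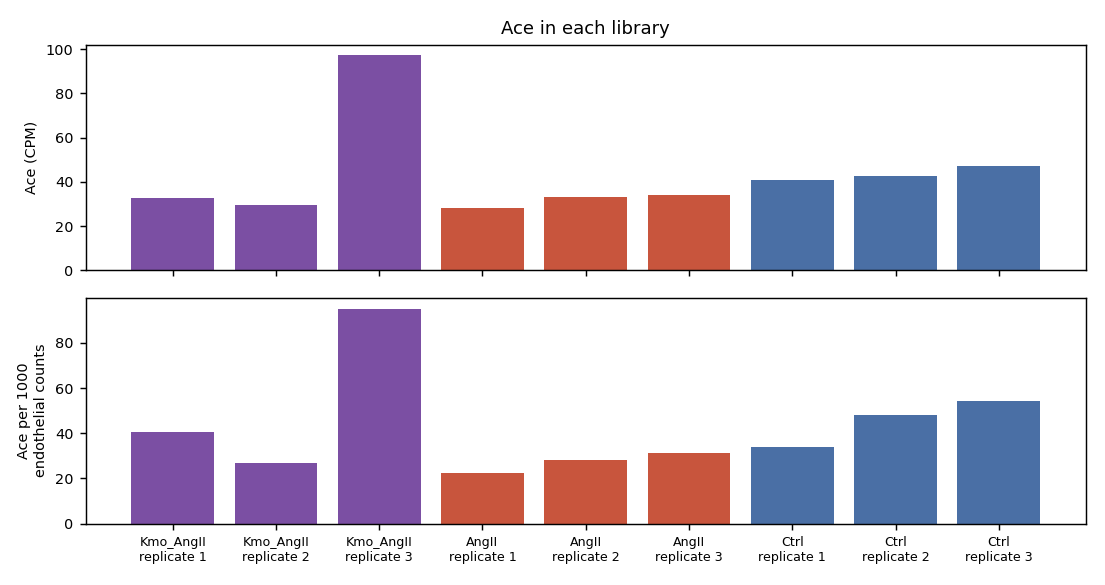
Ace level in CPM (top) and Ace counts per 1000 counts of the endothelial list (bottom) as bars in each of the 9 libraries, from Kmo_AngII to Ctrl. Kmo_AngII replicate 3 is highest in both, at 97.2 CPM and 95.2 per 1000, while the 3 AngII libraries lie under the 3 Ctrl libraries in both panels.

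Cma1 (ENSMUSG00000022225, chromosome 14) encodes a chymase stored in mast cell granules. It was the rarest of the tested genes, with raw counts of 68, 13 and 31 in Kmo_AngII libraries, 68, 21 and 33 in AngII libraries and 11, 0 and 15 in Ctrl libraries. In CPM these were 0.812, 0.198 and 0.612 in Kmo_AngII, 0.801, 0.312 and 0.408 in AngII and 0.195, 0 and 0.261 in Ctrl. All 3 AngII libraries lay above all 3 Ctrl libraries, and 2 of the 3 Kmo_AngII libraries did. AngII averaged 0.507 ± 0.259 CPM and Ctrl 0.152 ± 0.136 CPM (SD, n = 3 each). Neither AngII minus Ctrl, with a log2 difference of 1.70 ± 0.97 (SE, edgeR unadjusted p = 0.109, adjusted p = 0.890), nor Kmo_AngII minus Ctrl, with 1.79 ± 0.97 (edgeR unadjusted p = 0.0942, adjusted p = 0.998), was called.

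Mast cell genes as a summed list did not separate the treatment labels. They summed to 21.7 to 49.3 CPM in Kmo_AngII, 34.4 to 40.2 CPM in AngII and 26.5 to 40.3 CPM in Ctrl libraries. The protease genes Cpa3, Mcpt4 and Tpsb2 each had at most 1.68 CPM in any library, so the sum rests mostly on other genes. Its worth as a measure of mast cells was not tested. Fcer1a and Ms4a2, which encode parts of the IgE receptor, were both at 0 in Kmo_AngII replicate 3, AngII replicate 2 and Ctrl replicate 2. The granule protease genes Cpa3, Mcpt4 and Tpsb2, which are closer to Cma1 in function and were looked at after their values were seen, were counted in all 9 libraries. Tpsb2 had 0.370, 1.02 and 1.68 CPM in Kmo_AngII, 0.412, 0.312 and 0.124 CPM in AngII and 0.213, 0.262 and 0.261 CPM in Ctrl libraries. Kmo_AngII thus lay above Ctrl without overlap, while 6.77% of all genes separated these labels in either direction. Those values rest on raw counts of 31, 67 and 85 in Kmo_AngII and 12, 11 and 15 in Ctrl. Cpa3 had 0.1195 to 1.34 CPM in Kmo_AngII, 0.136 to 0.612 CPM in AngII and 0.208 to 0.358 CPM in Ctrl libraries, and Mcpt4 had 0.259 to 1.4997, 0.208 to 1.001 and 0.174 to 0.596 CPM in the same order. Both overlapped between all labels. Of the 50-base stretches of the Cma1 transcript used, 5.46% also occurred in Gm48934, which is a further limit on so low a count.

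**Figure D5:**
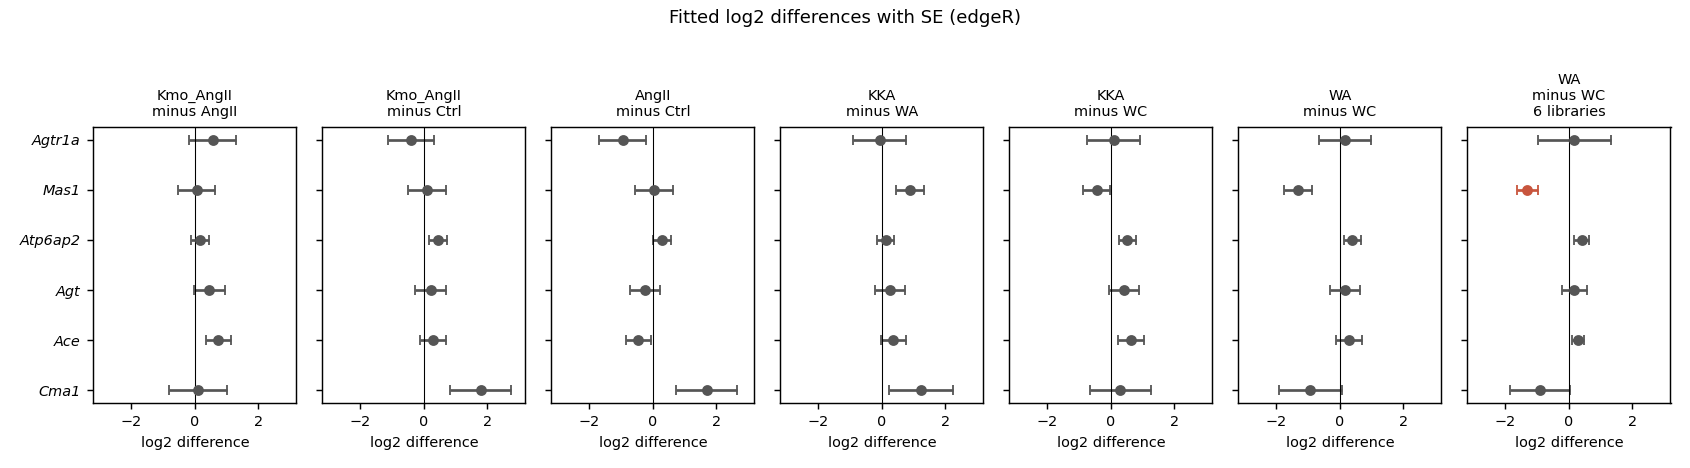
Fitted log2 difference (horizontal axis) with its SE for the 6 tested genes in the 6 comparisons of the fits of 9 libraries and in WA minus WC in the fit of 6 libraries, positive where the group named first is higher. Only Mas1 in the last panel, at -1.31 ± 0.34, was called.

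By title prefix the other genes gave no call in any fit. In the fit of 6 libraries the log2 difference of WA minus WC was 0.41 ± 0.23 (SE) for Atp6ap2 (edgeR adjusted p = 0.270) and 0.29 ± 0.19 for Ace (edgeR adjusted p = 0.330). Those of Agtr1a, Agt and Cma1 were 0.17 ± 1.16, 0.17 ± 0.38 and -0.91 ± 0.95. Without AngII replicate 3 the Atp6ap2 difference was 0.17 and that of Cma1 -1.68, without AngII replicate 1 those of Ace and Cma1 were 0.19 and -0.13, and without Ctrl replicate 1 that of Ace was 0.45. KKA overlapped WA and WC in all 6 genes, while 8.18% of all genes separated KKA from WA and 7.59% separated it from WC. The median log2 difference of the 6 genes was 0.31 in KKA minus WA, 0.36 in KKA minus WC and 0.17 in WA minus WC of the 6-library fit, beside 0.051, 0.054 and -0.012 over all tested genes.

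The wider pathway was read from 5 lists. Genes known to respond to angiotensin II in heart and vessels, such as those of natriuretic peptides, matrix and oxidase subunits, had 0 of 19 tested members called in AngII minus Ctrl, with 1 at an unadjusted edgeR p under 0.05. Their median log2 difference was -0.50 and 6 were positive. In Kmo_AngII minus AngII 0 were called, 18 of 19 were positive and the median was 0.71. In Kmo_AngII minus Ctrl 0 were called, 14 were positive and the median was 0.31, and each of these comparisons had 1 member at an unadjusted p under 0.05. These comparisons share libraries, so their values are not separate evidence. Summed over the list, the Kmo_AngII libraries had 2085, 385.6 and 1649 CPM and the AngII libraries 309.9, 236.9 and 1373 CPM. The Ctrl libraries had 368.3, 1504 and 1906 CPM, so the 3 labels overlapped. By title prefix the sums were 236.9 to 368.3 CPM in WC and 1373 to 1906 CPM in WA. In KKA minus WC 18 of 19 were positive as well. The part of the title prefix in the label differences was not tested. In Kmo_AngII replicate 3, Nppa gave 1101 CPM of the sum and Nppb 23.1 CPM. None of the 12 tested angiotensin peptidases, 18 receptor partners and signal carriers, 7 mineralocorticoid and kinin genes or 15 V-ATPase subunits was called between treatment labels in edgeR, with medians between -0.26 and 0.15. In AngII minus Ctrl, 0, 1, 0 and 2 of them, in that order, had an unadjusted p under 0.05, as did 1 receptor partner in Kmo_AngII minus AngII and 0 of all 4 lists in Kmo_AngII minus Ctrl. Sgk1, a kinase induced through the mineralocorticoid receptor, had a log2 difference of 0.35 ± 0.29 (SE) in AngII minus Ctrl (edgeR adjusted p = 0.913).

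Calls in these lists came between the title prefixes, in the fit of 6 libraries. Of 19 response genes, 7 were higher and 1 lower in WA than in WC. Nppb and Nppa, the natriuretic peptide genes of stretched heart muscle, were higher by 3.35 ± 0.35 and 3.30 ± 0.37 on the log2 scale (SE, edgeR adjusted p = 0.00134 and 0.00171). Rcan1, a target and regulator of calcineurin, was higher by 1.81 ± 0.19 and Ccn2, a matrix growth factor gene, by 1.83 ± 0.22 (edgeR adjusted p = 0.00134 and 0.00223). The gene that was lower, Edn1, which encodes endothelin and was named after its values were seen, had a log2 difference of -1.19 ± 0.28 (edgeR adjusted p = 0.0191). WA held 2 of the 3 Ctrl libraries, and WC held 2 of the 3 AngII libraries. The list thus stood at 8 of 19 beside a background of 13.3%, and under the alternatives 4 to 9 were called. Nppa is also an atrial marker. Of the 9 cardiomyocyte markers, all had a positive log2 difference in the same fit and 3 were called higher in WA, and their summed level did not overlap between WA and WC. The part of that list, and of the other marker lists given beside Mas1, in these calls was not tested.

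Of the peptidases, 3 of 12 were higher in WA, with none lower. Prep, a prolyl peptidase that makes angiotensin-(1-7), was higher by 1.29 ± 0.25, Lnpep, the binding site of angiotensin IV, by 0.78 ± 0.16, and Ctsd, a lysosomal protease, by 1.04 ± 0.27 on the log2 scale (edgeR adjusted p = 0.00873, 0.0111 and 0.0269). Of the receptor partners, 2 of 18 were higher: Gna12, a G protein subunit, by 0.89 ± 0.18 and Prkca, a protein kinase C, by 1.25 ± 0.29 (edgeR adjusted p = 0.0111 and 0.0173). Among the V-ATPase subunits, the complex that Atp6ap2 joins, 4 of 15 were higher and none lower. They were Atp6v1e1 by 0.95 ± 0.18, Atp6v1d by 0.86 ± 0.21, Atp6v1c1 by 0.60 ± 0.17 and Atp6v1b2 by 0.67 ± 0.20 (edgeR adjusted p = 0.00896, 0.0218, 0.0381 and 0.0461). Of the 6 tested mineralocorticoid and kinin genes 0 were called, with 2 at an unadjusted p under 0.05. Over all genes 8.06% were called higher, so the 2 of 18 receptor partners are near the background and no result about that list. Under the alternatives the counts ranged from 0 to 3 for peptidases, 0 to 4 for receptor partners and 0 to 6 for V-ATPase subunits.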

How the data were processed

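Total RNA of heart was extracted with Trizol and poly(A)-selected for paired-end libraries, per the labels' protocols. The authors deposited 1 table of whole-number counts for 55401 Ensembl genes, 1 column per library, not scaled for depth. The submitters' processing notes name the build mm8 and the tools StringTie 1.3.0, HISAT2 2.0 and Bowtie 0.12.2. How they were run, which tool counted, the annotation and the use of strand are not given there.

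Symbols matched 55141 genes, and 260 kept their identifier. Replicate numbers follow sample order and pair nothing. EdgeR 4.0.16 (R 4.3.3) was used with TMM, filterByExpr, the robust quasi-likelihood F test and 1 fit of 9 libraries per grouping. The fit of 6 libraries tested 18111 genes. Each SE is the fitted difference divided by the root of F. DESeq2 1.42.0, other scalings and filters, fewer libraries and a covariate were alternatives. The tests were checked on simulated data. Exon lengths and transcript sequences came from GENCODE M21, another build than mm8, so no coordinates are given. Shared stretches were counted for 1 transcript of each member.

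The rule for the members uses names and no measured value, but the members, lists and tests were chosen with earlier results of these data known. Beside the members, the text names by rule up to 4 called genes of each list in a comparison, or otherwise the gene with the smallest p in AngII minus Ctrl, and the 3 genes whose log2 CPM (prior count 2) correlated best with each member among genes with a mean of at least 1. Of the peptidase list, 1 gene is not reported here and was left out of its counts.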

Additional observations from a re-analysis of the deposited data

How the results depend on the processing

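Calls in the fits of 9 libraries stayed at 0 members under every alternative, except that WA minus WC had 1 with only the groups compared and 0 to 1 when each library was left out. In the fit of 6 libraries the count was 0 when library size alone scaled the counts and 0 to 1 when each library was left out. The log2 difference of Mas1 there stayed between -1.63 and -1.15.

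When library size alone scaled the counts, these log2 differences had the other sign: 0.45 for Agt and 0.19 for Ace in AngII minus Ctrl, -0.31 for Mas1, -0.17 for Atp6ap2 and -0.27 for Cma1 in Kmo_AngII minus AngII, 0.11 for Agtr1a in KKA minus WA, and -0.094 for Agtr1a, -0.23 for Agt and -0.027 for Ace in both fits of WA minus WC. This scaling moved the median of all genes to 0.67, -0.29, 0.16, -0.33 and -0.32 in these comparisons, in that order. With the other grouping as a covariate Mas1 was at -0.38 in AngII minus Ctrl, and Agtr1a at -0.14 and -0.12 in WA minus WC of the 9- and 6-library fits.

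Leaving out each library in turn changed the sign of these log2 differences, and the widest moves with no change of sign are given beside the results. In AngII minus Ctrl Agt ranged from -0.76 to 0.085 and Mas1 from -0.46 to 0.72. In Kmo_AngII minus AngII Ace ranged from -0.029 to 1.03, Atp6ap2 from -0.023 to 0.45, Cma1 from -0.34 to 0.58 and Mas1 from -0.28 to 0.56. In Kmo_AngII minus Ctrl Ace ranged from -0.49 to 0.58, Agt from -0.22 to 0.51 and Mas1 from -0.25 to 0.78. In KKA minus WA Ace ranged from -0.41 to 0.65, Agt from -0.19 to 0.56, Agtr1a from -0.32 to 0.14 and Atp6ap2 from -0.046 to 0.37. In KKA minus WC Ace ranged from -0.13 to 0.94, Agt from -0.017 to 0.88, Agtr1a from -0.47 to 0.54 and Cma1 from -0.13 to 1.09. In WA minus WC Agt ranged from -0.18 to 0.63 and Agtr1a from -0.40 to 0.61, and in the 6-library fit from -0.17 to 0.66 and from -0.38 to 0.62.

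The cause of these changes was not tested. Low counts limit Cma1 and Agtr2, and 3 libraries a group limit every comparison. No paired analysis was possible because replicate numbers were given in sample order and no title number is shared between groups.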

Other observations

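The low Agtr1a value of AngII replicate 1 was shared by few genes. Of 8426 genes with at least 5 CPM in each of the other 8 libraries, 4 were more than 8-fold under the lowest of them in that library: Agtr1a, Zbtb22, Fsd1l and Gm45717. The same count was 0 to 3 in each of the other libraries. Genes more than 8-fold above all other libraries numbered 19 in Kmo_AngII replicate 3 and 0 to 1 elsewhere.

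The genes whose log2 CPM followed each member most closely over the 9 libraries differed in how far they rested on 1 library. The libraries share groups and depth, so the values are descriptions. For Agtr1a they were Map2 (Pearson r = 0.982), Hdac9 (0.966) and Zbtb22 (0.957), and without AngII replicate 1 the values were 0.738, 0.391 and -0.348. For Mas1 they were Dxo (0.975), Bbs2 (0.974) and Jpx (0.974), and without Ctrl replicate 3 all stayed at 0.965 or higher. For Ace they were Plekha4 (0.987), Olfml3 (0.978) and Timp2 (0.976), at 0.942, 0.956 and 0.885 without Kmo_AngII replicate 3. Atp6ap2 was closest to Rpl10-ps1 (0.947), Hsd17b12 (0.939) and C1qtnf12 (0.938), at 0.946, 0.927 and 0.924 without AngII replicate 3. Agt was closest to Taf9b (0.948), Lrp10 (0.892) and Fth1 (0.880), at 0.907, 0.791 and 0.775 without AngII replicate 2. Cma1 was closest to Rfc3 (0.940), Recql (0.936) and Specc1l (0.936), at 0.734, 0.746 and 0.848 without Ctrl replicate 2.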
